A study of Arabidopsis thaliana with 10 samples.

Results

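PSBW (AT2G30570), PSBY (AT1G67740) and PSB27 (AT1G03600) are nuclear genes for proteins of photosystem II, and each had 1 spot of its own on the filters analysed here. They were chosen by annotation, with earlier results of these data known. They are 3 of 644 genes that had a spot paired with no other gene, among 3261 features in all. The transcripts were measured in leaves of Arabidopsis thaliana, accession Col-0, grown on soil for 21 days in white light with 8 h of light a day, then kept for 3 days in light that favours 1 photosystem. Plants were moved either to light that favours photosystem II (PSII light) after light that favours photosystem I, or to PSI light after PSII light, and were sampled 30 min, 2 h, 8 h and 48 h after the move. Each shift also has a column for white light plants, whose comparison sample is not stated. The labels name no transgene, mutant or chemical in any group. The sources name thylakoid membranes, but the material labelled was total leaf RNA, from pools of 250 to 500 plants.

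Photosystem II splits water and passes the electrons to plastoquinone, and photosystem I takes them up further along the chain. Light that favours photosystem II leaves the plastoquinone pool more reduced, and light that favours photosystem I leaves it more oxidised, a signal known to act on the transcription of chloroplast and nuclear photosynthesis genes. The reaction centre proteins are encoded in the chloroplast, whereas PSBW, PSBY and PSB27 are made in the cytosol and imported. PSBW is a small membrane subunit that stabilises the assemblies of photosystem II with its light-harvesting antenna. PSBY is made as a precursor that is cut into a pair of small membrane peptides, which sit near cytochrome b559. PSB27 lies on the lumenal side, binds photosystem II while it is being assembled or repaired, and is no part of the active complex.

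The deposited values are linear ratios to a reference, with 1 column for each of 10 conditions. No column is repeated, so no value below has an error and no difference was tested. A ratio above 1 was taken to mean more transcript in the named condition than in plants sampled before the shift. This is a reading of the design that the labels do not state, and every direction below turns round if it is wrong. Column medians lay between 0.588 and 1.26, so values are also given as the log2 ratio minus the median log2 ratio of the column, where 1 means 2-fold above the median feature and −1 means 2-fold below it. Least settled in direction are the PSI light columns for 2 h and 48 h, since across features they correlated negatively with several others, with r down to −0.299 for 2 h and −0.289 for 48 h. The level of a transcript and its signal over background cannot be read from ratios, so a check of the tissue by marker genes could not be made. The single gene with 2 spots of its own, AT2G25870, gives a view of how far spots of a gene can lie apart on these filters. Its spots differed by a median of 0.58 on the log2 scale over the 10 columns, by at most 1.26, and by 2-fold or more in 2 columns.

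PSBW and PSBY followed nearly the same course in both shifts until 48 h of PSI light, where PSBW lay far below PSBY. PSB27 lay below both in 9 of 10 columns and above both in that one, as the columns were read. The values of PSBW, PSBY and PSB27 that lay 2-fold or more from the median numbered 4 above and 2 below, out of 30. Depending on the column, 0.285% to 13.6% of all features lay that far above and 0.509% to 7.3% that far below. All 6 values past 2-fold belonged to the 48 h column of PSII light or the 30 min or 48 h column of PSI light. PSB27 was on the side of the median opposite to PSBW and PSBY in the columns of PSI light concerned. Apart from PSBW at 48 h of PSI light, the 6 had log2 sizes of 1.09 to 1.41. The largest difference between the spots of AT2G25870 was of like size, at 1.26.

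**Figure D1:**
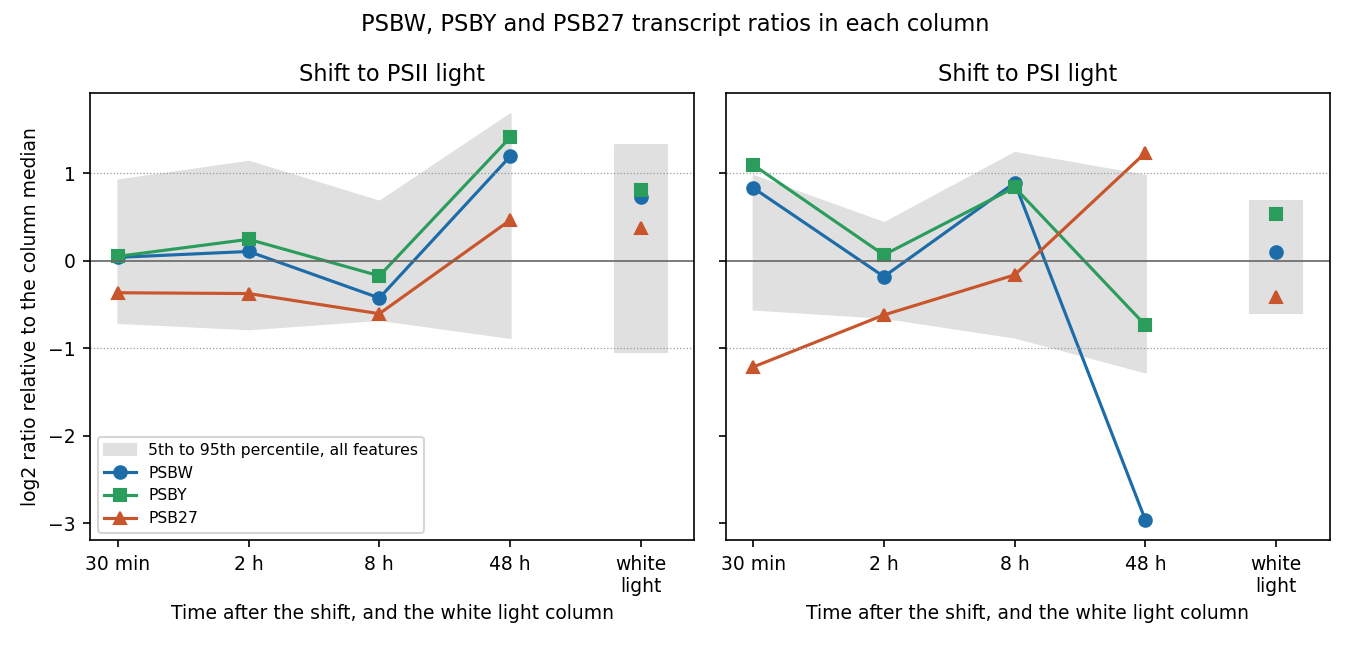
Log2 ratio relative to the column median (vertical axis) for PSBW (blue circles), PSBY (green squares) and PSB27 (orange triangles) at each time after the shift to PSII light (left) and to PSI light (right), with the white light column set apart; 1 value per point and no error bars, because no column is repeated. The grey band spans the 5th to the 95th percentile of all features and dotted lines mark 2-fold; at 48 h of PSI light PSBW lies at −2.96 and PSB27 at 1.23, on opposite sides of the band.

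From 30 min to 48 h of PSII light PSBW had deposited ratios of 0.875, 1.00, 0.862 and 1.34. Set against the column medians these were log2 values of 0.04, 0.11, −0.43 and 1.19. The gene thus lay close to the median feature for the first hours, below it at 8 h and at 2.28 times it at 48 h. In the white light column of this shift its ratio was 1.32, which is 0.73 above the median.

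After the shift to PSI light PSBW had deposited ratios of 1.29, 0.987, 1.27 and 0.162 from 30 min to 48 h. The log2 values relative to the median were 0.83, −0.18, 0.89 and −2.96. At 48 h PSBW stood at 0.128 times the median, the 15th lowest of 3163 features, after standing at 1.85 times the median at 8 h. Its white light ratio in this shift was 0.955, at 0.10 above the median. The span of PSBW over the 4 time points of PSI light was 3.85 on the log2 scale, larger than that of 98.9% of 2988 features, whose median span was 0.86. With the PSI light columns for 2 h and 48 h turned over, its values there become 0.18 and 2.96, and its span is 2.78, larger than that of 97.2% of features treated alike.

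PSBY had deposited ratios of 0.882, 1.11, 1.03 and 1.56 over the same times in PSII light. These lay 0.05, 0.24, −0.17 and 1.41 from the median on the log2 scale, so that 48 h alone stood out, at 2.65 times the median. White light gave a ratio of 1.39 and a log2 value of 0.81. After the shift to PSI light the ratios were 1.55, 1.17, 1.23 and 0.756, with log2 values of 1.09, 0.07, 0.84 and −0.74. PSBY was therefore 2.14 times the median at 30 min, close to it at 2 h, again above it at 8 h and below it at 48 h. White light in this shift gave a ratio of 1.28 and a log2 value of 0.53, higher than 90.8% of features. PSBY lay above the median in 8 of 10 columns, the exceptions being 8 h in PSII light and 48 h in PSI light.

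PSB27 had deposited ratios of 0.661, 0.720, 0.761 and 0.810 through the time points of PSII light, all under 1. Against the median they were −0.37, −0.38, −0.61 and 0.46, so the place of PSB27 above the median at 48 h came from the low median of that column. White light gave 1.03 as deposited and 0.37 relative to the median. After the shift to PSI light the ratios were 0.312, 0.729, 0.614 and 2.96, with log2 values of −1.21, −0.62, −0.16 and 1.23. At 30 min PSB27 was at 0.431 times the median and the 27th lowest of 3108 features. It lay nearer the median at 2 h and 8 h, and at 48 h was at 2.35 times the median and the 85th highest of 3163 features. The white light value in this shift was 0.665 as deposited and −0.42 relative to the median, higher than 11.8% of features.

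Ordered by level relative to the median, PSBW was highest at 48 h of PSII light, followed by 8 h and 30 min of PSI light at 0.89 and 0.83. PSBY was likewise highest at 48 h of PSII light, followed by 30 min and 8 h of PSI light. Both were lowest at 48 h of PSI light, where PSB27 was highest. This order holds for the columns as read: with the unsettled columns turned over, PSBW is highest at 48 h of PSI light with 2.96, PSB27 is lowest there with −1.23, and PSBY has 0.74 there. Without repeated columns, neighbours in these orders cannot be told apart by their spread, and the gap between 8 h and 30 min of PSI light for PSBW is small beside the median difference between the spots of AT2G25870.

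Read against all features, the 3 genes were not alike in how far they stood out. At 48 h of PSII light PSBW and PSBY were 2 of 3 genes at 2-fold or more above the median, in a column where 13.6% of features were. None of the 3 was 2-fold or more below there, against 3.3% of features. As deposited, PSBW and PSBY had 0.42 and 0.64 in that column, under 2-fold. At 30 min of PSI light PSBY was the 1 of 3 above, against 4.67% of features, and PSB27 the 1 of 3 below, against 1.19%. At 48 h of PSI light PSB27 was the 1 of 3 above, against 4.68%, and PSBW the 1 of 3 below, against 7.3%. In the other 7 columns no value of the 3 genes passed 2-fold. In PSII light 3.77% of features were above and 1.71% below after 30 min, 6.49% above and 2.73% below after 2 h, and 2.16% above and 1.91% below after 8 h. In PSI light 0.285% were above and 2.06% below after 2 h, and 7.86% above and 3.61% below after 8 h. The white light columns had 8.45% above and 5.48% below with the shift to PSII light, and 1.88% above and 0.509% below with the opposite shift.

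Dividing a later column of a shift by an earlier one removes the shared comparison sample, if the columns do share it, and leaves the change between the time points relative to the median. In PSII light the step with the largest change was from 8 h to 48 h, with log2 differences of 1.62 for PSBW, 1.58 for PSBY and 1.07 for PSB27. All 3 genes thus passed 2-fold in the same direction, in a step where 12.4% of 2990 features did so and 2.51% passed it downward. That count rests on the column medians, whose log2 values were 0.21 at 8 h and −0.77 at 48 h: as deposited the steps were 0.64, 0.60 and 0.09, and none of the 3 passed 2-fold. For PSBW and PSBY the step was larger than that of 98.0% and 97.7% of features, and for PSB27 it was larger than that of 89.2%. The earlier steps in PSII light were small, between −0.53 and 0.19, with none past 2-fold. The background there was 0.977% of features above and 0.782% below from 30 min to 2 h, and 0.743% above and 1.16% below from 2 h to 8 h.

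In PSI light the steps of PSBW and PSBY alternated in direction. From 30 min to 2 h they were −1.01 and −1.03, both just past 2-fold downward as 7.04% of features were, while 1.33% passed it upward. As deposited these steps were −0.38 and −0.40. From 2 h to 8 h they were 1.07 and 0.77, so that PSBW alone passed 2-fold upward, against 12.2% of features, with 6.15% downward, and the step of PSBW was 0.37 as deposited. From 8 h to 48 h they were −3.85 and −1.57, which is 14.4-fold lower relative to the median for PSBW and 2.98-fold lower for PSBY. In this step 16.9% of 3065 features were 2-fold or more lower. As deposited the step of PSBW was −2.98 on the log2 scale, and that of PSBY was −0.70, under 2-fold. The steps of PSB27 relative to the median were 0.59, 0.46 and 1.40, upward each time, the last being 2.63-fold in a step where 9.92% of features passed 2-fold upward. As deposited the step of PSB27 was 1.22 from 30 min to 2 h, past 2-fold, and −0.25 from 2 h to 8 h. With the unsettled columns turned over, the steps from 8 h to 48 h become 2.07 for PSBW, −0.10 for PSBY and −1.07 for PSB27, and the step of PSBW from 30 min to 2 h becomes −0.65. The steps of PSB27 then become 1.83 from 30 min to 2 h and −0.78 from 2 h to 8 h, no longer upward each time.

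The opposite shifts were set side by side at matched times to ask whether a gene responded in opposite ways to them. PSBW had log2 values of 1.19 at 48 h of PSII light and −2.96 at 48 h of PSI light, a difference of 4.15, higher than that of 99.1% of 2962 features. PSBY had 1.41 and −0.74 in the same columns, a difference of 2.14. Part of both differences came from the column medians, whose log2 values were −0.77 in PSII light and 0.33 in PSI light. As deposited the differences were 3.05 for PSBW and 1.04 for PSBY, the latter just past 2-fold. PSBW and PSBY were thus 2 of 3 genes at 2-fold or more higher in PSII light, as 20.4% of features were at this time, while 10.6% passed 2-fold downward. With the 48 h column of PSI light turned over, the differences become −1.77 for PSBW, 0.67 for PSBY and 1.70 for PSB27. PSBW is then past 2-fold in the other direction, PSBY is under 2-fold, and PSB27 passes 2-fold upward. PSB27 had 0.46 in PSII light and 1.23 in PSI light, a difference of −0.77, so it was above the median at 48 h of both lights. As deposited its ratios there were 0.810 and 2.96, on opposite sides of the reference. The difference as deposited was −1.87, past 2-fold.

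At 30 min and 8 h the difference between the shifts had the other sign for PSBW and PSBY. At 30 min PSBY had 0.05 in PSII light and 1.09 in PSI light, and the difference of −1.04 was past 2-fold, as 5.25% of features were in this direction and 3.58% in the other. As deposited it was −0.81, under 2-fold. PSBW had a difference of −0.79 at 30 min. At 8 h PSBW had −0.43 in PSII light and 0.89 in PSI light, a difference of −1.32, and PSBY had −0.17 and 0.84, a difference of −1.01. Both were past 2-fold there, as 10.9% of features were in this direction and 5.22% in the other. Neither call held as deposited, with −0.56 for PSBW and −0.26 for PSBY, and that of PSBY was also lost after quantile normalization, at −0.92, and with the median taken over features measured in all 10 columns, at −0.996. At 2 h all 3 genes had differences between 0.18 and 0.29, under 2-fold, where 11.1% of features passed 2-fold upward and 5.1% downward. PSB27 differed by 0.85 at 30 min and by −0.44 at 8 h. As deposited its differences were 1.08 at 30 min, past 2-fold, and 0.31 at 8 h. After quantile normalization the difference at 30 min was 1.09, also past 2-fold. The comparison samples are not stated. With each shift read against its own plants sampled before the move, the differences at matched times are between changes and not between levels.

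**Figure D2:**
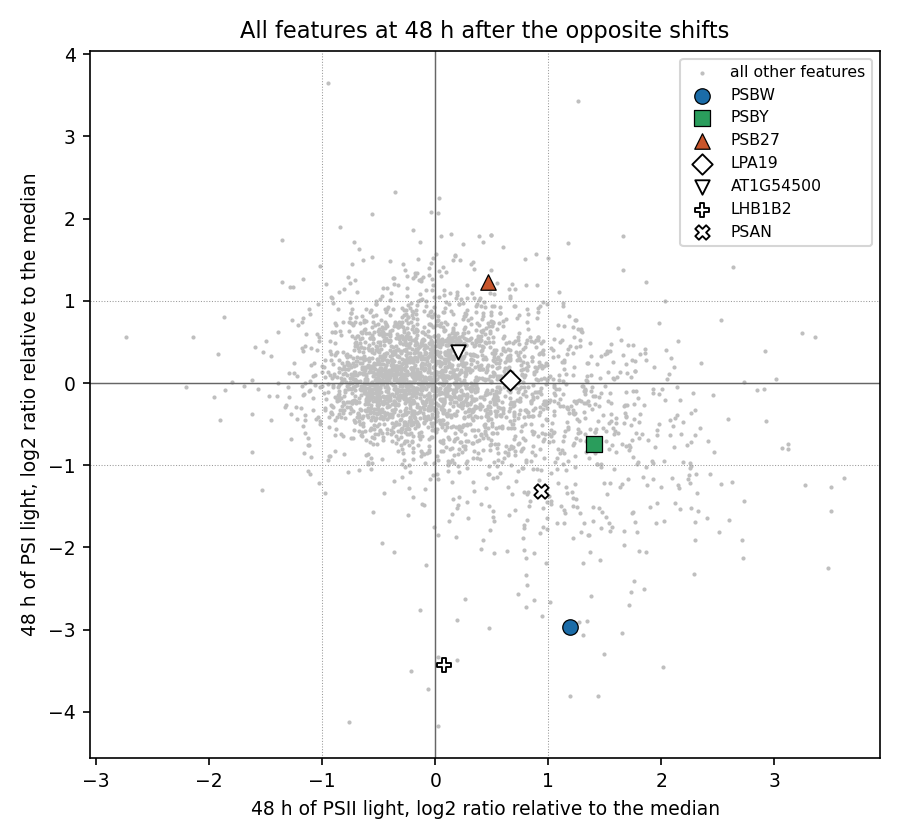
Log2 ratio relative to the median feature, with 48 h of PSII light on the horizontal axis and 48 h of PSI light on the vertical axis, with 1 grey point for each feature measured in both columns, filled symbols for PSBW, PSBY and PSB27 and open symbols for LPA19, AT1G54500, LHB1B2 and PSAN. Dotted lines mark 2-fold; PSBW lies at 1.19 and −2.96, PSBY at 1.41 and −0.74 and PSB27 at 0.46 and 1.23.

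Differences between the 3 genes within a column do not depend on where the column is centred. PSBW minus PSBY lay between −0.43 and 0.05 on the log2 scale in the 9 columns other than 48 h of PSI light, where it was −2.23. Their ratios to the reference thus stayed within 1.35-fold of each other in 9 columns and were 4.68-fold apart in the tenth. PSBW minus PSB27 was between 0.18 and 1.05 in 8 columns, 2.05 at 30 min of PSI light and −4.20 at 48 h of PSI light, an 18.3-fold difference in the last. PSBY minus PSB27 was between 0.42 and 1.00 in 8 columns, 2.31 at 30 min of PSI light and −1.97 at 48 h of PSI light. If the 48 h column of PSI light is inverted these sizes stand and their signs turn, so that PSBW would be the highest of the 3 there. If the 2 h column is inverted too, PSB27 is the highest of the 3 there, at 0.62 against 0.18 for PSBW and −0.07 for PSBY.

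**Figure D3:**
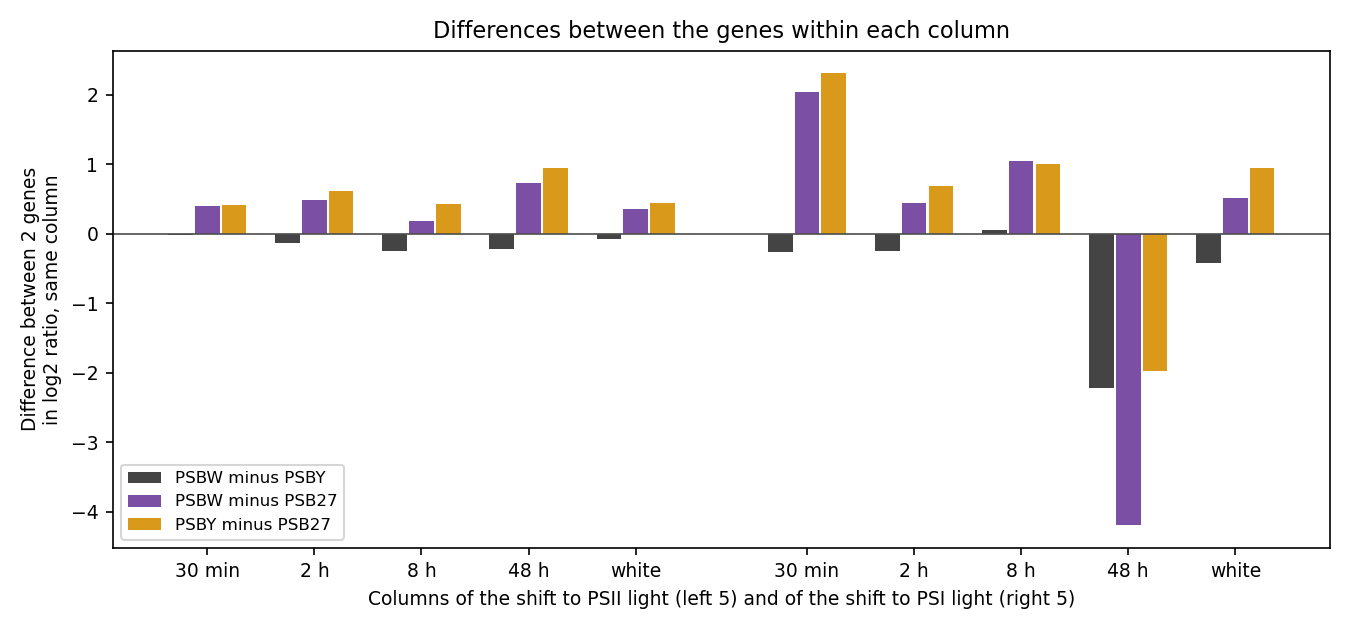
Difference in log2 ratio between pairs of the genes within the same column (vertical axis, 1 bar per pair, no error bars because columns are not repeated), for the columns of the shift to PSII light (left) and of the shift to PSI light (right). PSBW minus PSBY (dark grey) stays between −0.43 and 0.05 except for −2.23 at 48 h of PSI light, and both differences against PSB27 (purple and yellow) are positive except at 48 h of PSI light.

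As a description over the 10 columns, which may share comparison samples within a shift, the log2 values of PSBW and PSBY correlated at r = 0.90 (Spearman's rho = 0.96). PSBW and PSB27 had r = −0.50 (rho = 0.13), and PSBY and PSB27 had r = −0.25 (rho = −0.01). Without 48 h of PSI light the correlations over 9 columns were 0.96, 0.44 and 0.37, so the negative signs against PSB27 rest on that column alone. With the PSI light columns for 2 h and 48 h turned over, r was 0.59 for PSBW with PSBY, −0.33 for PSBW with PSB27 and −0.03 for PSBY with PSB27.

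Among 551 genes with a spot of their own and a value in all 10 columns, the 3 most like PSBW by Pearson's r were AT2G38550 with 0.976, AT1G32160 with 0.962 and AT4G31530 with 0.924. They were also low at 48 h of PSI light, at −2.03, −1.28 and −3.30. Only AT2G38550 stayed among the nearest 3 by Spearman's rho, by the mean absolute difference, which was 0.27, and without that column, where its r was 0.936. PSBY ranked 8th of 550 by r for PSBW, and 1st by Spearman's rho and by r without 48 h of PSI light. The gene least like PSBW was AT5G02830 at r = −0.937, which had 1.27 at 48 h of PSI light and stayed between −0.14 and 0.20 in the other 9 columns.

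The genes most like PSBY were AT1G78620 with r = 0.932, AT1G21500 with 0.925 and AT1G74470 with 0.918. AT1G74470 encodes geranylgeranyl reductase, which makes the phytyl chain of chlorophyll and tocopherol. Its log2 values of 1.41 at 48 h of PSII light, 1.08 and 1.30 at 30 min and 8 h and −0.59 at 48 h of PSI light ran beside those of PSBY, with a mean absolute difference of 0.24 over the 10 columns. AT1G78620 was nearest by that measure, at 0.20. Without 48 h of PSI light these 3 genes kept r values from 0.864 to 0.912. PSBW ranked 5th by r for PSBY and 1st by Spearman's rho. ATATH8 was least like PSBY at r = −0.912, and its own values stayed between −0.50 and 0.27.

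By Pearson's r over all 10 columns no gene was as close to PSB27. The most alike were CRR41, named for its part in chlororespiration, with r = 0.800, AT3G58830 with 0.800 and AT4G31470 with 0.771. Their values at 48 h of PSI light were 0.53, 0.43 and 0.94, under 2-fold, and without that column the r values became 0.525, 0.578 and 0.689. AT4G27390, 4th by r, was 1st by Spearman's rho and at r = 0.949 without that column, and was singled out after its values were seen. Its rho was 0.90, but by the mean absolute difference, which was 0.69, it ranked 332nd of 550. AT1G62250 was least like PSB27 at r = −0.745.

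**Figure D4:**
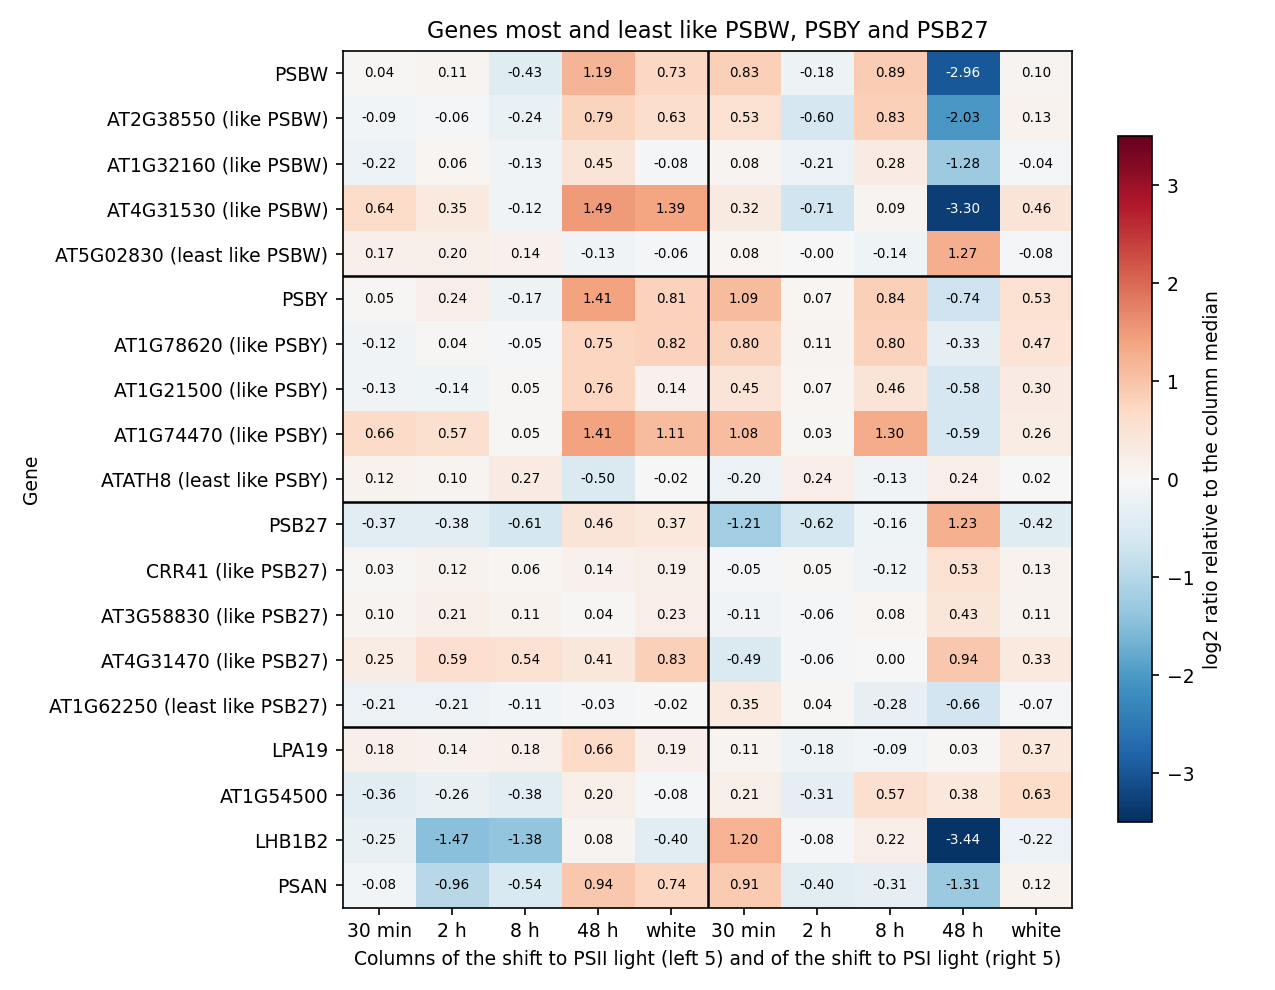
Log2 ratio relative to the column median (colour scale and printed value) in each of the 10 columns for PSBW, PSBY and PSB27, each followed by the 3 genes most like it and the 1 least like it by Pearson's r over the columns, and for LPA19, AT1G54500, LHB1B2 and PSAN. The dark cells at 48 h of PSI light are LHB1B2 at −3.44, AT4G31530 at −3.30 and PSBW at −2.96.

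Few other photosystem genes could be set beside these. Of 16 listed subunits of photosystem II, PSBW, PSBY and PSB27 were the 3 measured by a spot of their own, and of 27 listed assembly and repair factors 2 were measured. LPA19, a homologue of PSB27 that acts in the maturation of the D1 reaction centre protein, stayed between −0.18 and 0.66 relative to the median in all 10 columns. At 48 h of PSI light PSB27 had 1.23, against 0.03 for LPA19, and at 30 min of PSI light PSB27 had −1.21, against 0.11 for LPA19. AT1G54500, the other measured gene of that list, stayed between −0.38 and 0.63. Neither passed 2-fold in any of the 10 columns.

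Of 15 listed antenna genes of photosystem II 1 was measured, LHB1B2, a chlorophyll-binding protein, and of 12 listed photosystem I subunits 1 was measured, PSAN, which lies on the lumenal side where plastocyanin docks. At 48 h of PSI light PSBW and PSBY were on the same side of the median as LHB1B2 at −3.44 and PSAN at −1.31, and PSB27 was on the other. At 2 h of PSII light PSBW had 0.11 and PSBY 0.24, against −1.47 for LHB1B2 and −0.96 for PSAN. None of the 6 listed photosystem I antenna genes, 14 electron transport and ATP synthase genes or 5 kinases and phosphatases had a spot of its own.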

How the data were processed

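Leaf RNA (25 to 30 µg) was turned into 33P-labelled cDNA with a primer mix for 1827 genes and hybridised to nylon filters with 3292 tags, in 3 independent experiments per time point, per the labels' protocols. The deposited values are linear ratios, with 1 column per condition. For image analysis, correction of background, scaling and the combining of experiments, the steps are not given in the sources. From the ratios, log2 values were taken with exact zeros as missing (no value of PSBW, PSBY or PSB27 was 0), the spots of 1 gene were averaged, and each column's median was subtracted. Of 3262 spots, 645 were paired with 1 gene by the platform annotation, 829 with several and 1788 with none, and symbols came from the TAIR10.1 gene table. A value was counted as called at 2-fold or more. With 1 column per condition no p-value, SD or interval was computed. The code for centring, calls and quantile scaling was tested on simulated ratios with planted shifts. That test checks the code alone, and not the noise of these filters or the changes between time points.

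The genes and lists were chosen with earlier results of these data known. Named were PSBW, PSBY and PSB27, for each the 3 genes most like it and the 1 least like it by Pearson's r over the 10 columns, and every measured gene of 7 lists of 95 genes. Python 3.11.15 with pandas 2.3.3 and numpy 2.4.6 was used. The number of arrays limits precision. Sequences of the spots and genome coordinates were not used here. Alternatives were ratios as deposited, quantile normalization, other centres, thresholds of 1.5-fold and 3-fold, inverted columns, a pseudocount, single spots, and time points left out.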

Additional observations from a re-analysis of the deposited data

How the results depend on the processing

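No paired analysis was possible because each condition has 1 column and the labels give no replicate numbers. The counts were 4 values 2-fold or more above the median and 2 below, of 30. They were unchanged with columns centred on spots of a single gene, with features measured in all 10 columns and with every spot on its own. Inverting 2 columns also gave 4 and 2, but only because PSBW and PSB27 traded sides at 48 h of PSI light. As deposited, 1 value was above (PSB27 at 48 h of PSI light) and 2 were below. Quantile normalization left 2 above and 2 below, and a pseudocount of 0.432 left 2 above and 1 below. The pseudocount brought PSB27 and PSBY at 30 min of PSI light to −0.62 and 0.79, under 2-fold. It brought PSBW at 48 h of PSII light to 0.83. At 1.5-fold there were 9 above and 5 below, and at 3-fold 0 above and 1 below, PSBW at 48 h of PSI light. Shares of all features are not given at these other settings, so these counts have no background beside them.

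PSBW and PSBY at 48 h of PSII light lost their 2-fold call as deposited, at 0.42 and 0.64, and after quantile normalization, at 0.69 and 0.83. PSBY at 30 min of PSI light had 0.63 as deposited. Inverting the PSI light columns for 2 h and 48 h turned PSBW at 48 h to 2.96, PSB27 at 48 h to −1.23, the difference between the shifts for PSBW at 48 h to −1.77, and the steps from 8 h to 48 h of PSI light to 2.07 for PSBW and −1.07 for PSB27. With a pseudocount the differences between the shifts for PSBY were −0.73 at 30 min and −0.70 at 8 h, and that for PSBW at 8 h was −0.91. No filter on low levels was run, as ratios carry no level. Correlations without 48 h of PSI light, and alternatives for steps and spans, were chosen after seeing the data. Without that column, 1 of the 3 genes most like PSBW, 1 of the 3 most like PSBY and none of the 3 most like PSB27 stayed among the nearest 3.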
